A study of Homo sapiens with 6 samples.

Results

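Filamins are long actin-binding proteins that cross-link actin filaments into networks and tie them to membrane receptors. Each chain starts with an actin-binding part built of calponin homology domains, goes on as a rod of immunoglobulin-like repeats and pairs with a second chain at its end. FLNA, on chromosome X, is made in most cell types, and FLNC, on chromosome 7, is best known from skeletal and heart muscle, where it sits at the Z-disc. The results below describe where these 2 genes, of 20033 protein-coding genes with a canonical transcript, carried lysine acetylation (Kac) and lysine benzoylation (Kbz) on their chromatin. The genes were chosen because peaks at FLNC differed between control and treated cells in the same lists, so every value at them is given as a description and without a test.

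The data came from ChIP-seq of a cell line labelled HepG2, which was established from a human liver tumour. Cells were left without treatment (control) or were given 10 mM sodium benzoate (SB) for 24 h, their chromatin was cut with MNase, and pan antibodies against Kac or Kbz pulled it down, so the histone and the lysine that carried a mark are not known. Of 6 libraries, 1 per group, the peak lists of control Kac (70326 peaks), SB Kac (63282 peaks) and SB Kbz (24308 peaks) were used. The labels state that peak calling found none for control Kbz, so Kbz had no untreated counterpart. A peak is a stretch with more reads than the background, and its fold is the authors' linear ratio of the 2. Peak lists carry no read totals, so depth was unknown, and each fold was ranked within its own list only, as the percentage of peaks with the same or a lower fold. With 1 library per group no difference could be set against replicate error.

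The label of the cells was checked first against 15 genes that mark liver cells. The canonical transcription start site (TSS) of 14 of them (93.3%) lay in no list, against 36.2% of all protein-coding genes. Within 3 kb of the TSS, control Kac was present at 7 of the 15 (46.7%), SB Kac at 6 (40.0%) and Kbz at 4 (26.7%). Over all protein-coding genes these shares were 72.8%, 71.9% and 60.3%. At 4 of them, namely ALB (serum albumin), FGA and FGB (fibrinogen chains) and FOXA2 (a liver transcription factor), no list held a peak anywhere in the gene or within 5 kb of it. This was so for 15.5% of all protein-coding genes, against 26.7% of the liver markers, a smaller contrast than at the TSS. These 15 markers were thus largely without peaks directly over the canonical TSS, while 7 of them had control Kac within 3 kb. How far this bears on the identity of the cells or on the filamin genes was not tested. Of 18 genes that mark striated muscle, 13 (72.2%) had a TSS in no list. Of the others 1 lay under all 3 lists, 2 under both Kac lists and 1 under each Kac list alone. Within 3 kb of the TSS, control Kac and SB Kac were each present at 8 of the 18 (44.4%) and Kbz at 3 (16.7%). At 5 (27.8%) no list held a peak in the gene or within 5 kb. The Kac shares within 3 kb and the share without any peak were thus close to those of the liver markers.

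FLNC (ENSG00000128591.16) lies on the plus strand of chromosome 7 from 128830406 to 128859274 (hg38). Its canonical transcript, FLNC-201, has 48 exons and starts at 128830406. In the gene body plus 5 kb there were 3 control Kac, 3 SB Kac and 4 Kbz peaks. They covered 11047, 14282 and 6071 bp, or 28.4%, 36.7% and 15.6% of this stretch. The corresponding medians over all protein-coding genes were 7.24%, 7.14% and 2.32%. With its flanks FLNC was therefore among the more densely marked genes, at percentiles 86.8, 92.5 and 92.1. In the gene body alone the lists covered 3939, 5674 and 2829 bp. The rest lay in the flanks, which take in the start of the next gene, ATP6V1F.

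At its main start FLNC was acetylated with and without SB. The control Kac peak reached from 128826489 to 128834077, over 7589 bp, and the SB Kac peak from 128826536 to 128834113, over 7578 bp. Their edges lay 47 and 36 bp apart. The folds stood at percentile 96.7 of the control Kac list (5.50) and at percentile 87.1 of the SB Kac list (4.74). Both domains held exon 1 with the TSS and reached 3671 and 3707 bp into the gene. Inside them lay 2 Kbz peaks. The stronger one, from 128829885 to 128832773 with a fold of 4.23 at percentile 58.6, covered the TSS, and the other, from 128827204 to 128828331 at percentile 28.8, ended 2075 bp upstream of it. The canonical TSS of FLNC was thus under all 3 lists, as were those of 8966 protein-coding genes (44.8%, Wilson 95% interval 44.1 to 45.4%, for counting error only). It was not a start with SB Kac and Kbz in the absence of control Kac, a pattern found at 155 genes (0.774%, interval 0.661 to 0.905%).

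**Figure D1:**
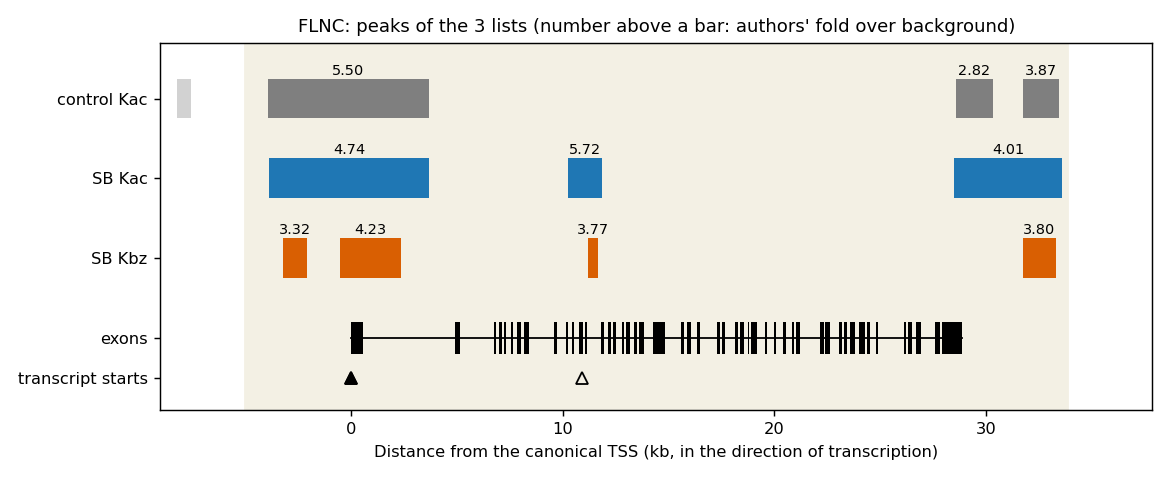
Peaks of the 3 lists at FLNC. The x axis gives the distance from the canonical TSS in kb, bars are peaks with the authors' fold above them (pale bars lie beyond the gene body plus 5 kb, which is shaded), black boxes are exons of FLNC-201, and the filled and open triangles mark the canonical and other annotated starts. The domains at the TSS match between control Kac (fold 5.50) and SB Kac (fold 4.74), and the SB Kac peak of fold 5.72 inside the gene, with a Kbz peak of fold 3.77, has no control Kac peak beneath or beside it.

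The SB Kac peak without a control Kac peak lay inside the gene. It reached from 128840662 to 128842249, over 1588 bp, began 10256 bp downstream of the TSS and touched exons 10 to 14. Its fold of 5.72 stood at percentile 94.3 of the SB Kac list, above the domain at the TSS, and its −log10 q was 12.3. The nearest control Kac peak, the domain at the TSS, ended 6584 bp away. The annotated start inside this peak belongs to FLNC-203, a transcript of 1528 bp with a retained intron that begins at 128841331, 10925 bp downstream of the canonical TSS. A Kbz peak of 461 bp, from 128841612 to 128842072, lay wholly inside the SB Kac peak and began 281 bp downstream of that start, so the start itself was under SB Kac alone. This Kbz peak had a fold of 3.77, at percentile 44.9 of its list, and fell entirely within intron 13, which is 663 bp long.

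The Kbz peak over the FLNC TSS had a G+C content of 66.9% and a CpG ratio, the number of CG pairs over that given by the base content, of 0.539, at percentiles 94.6 and 55.9 of the Kbz list. The Kbz peak in intron 13 had 44.7% and 0.131, at percentiles 14.7 and 6.27. The longer SB Kac peak around it had 58.3% and 0.307, at percentiles 83.7 and 62.9 of the SB Kac list. Within the Kbz peaks and beside them the sequence was examined over short windows. The 250 bases before the TSS are shown first, and then the central 300 bases of the Kbz peak in intron 13, both on the plus strand and 5′ to 3′. Capitals mark the letters GGGCGG or, for the other strand, CCGCCC, a motif bound by factors of the SP and KLF families, with overlapping matches all counted. The promoter comes from RefSeq (GRCh38.p14, chr7:128830156-128830405) and the intron from hg38 (chr7:128841693-128841992).
FLNC promoter: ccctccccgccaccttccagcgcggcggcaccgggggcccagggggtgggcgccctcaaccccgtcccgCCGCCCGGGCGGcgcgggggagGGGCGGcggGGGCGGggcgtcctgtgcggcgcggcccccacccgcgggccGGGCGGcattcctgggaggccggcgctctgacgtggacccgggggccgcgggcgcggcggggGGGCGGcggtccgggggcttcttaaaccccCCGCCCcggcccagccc
FLNC intron 13: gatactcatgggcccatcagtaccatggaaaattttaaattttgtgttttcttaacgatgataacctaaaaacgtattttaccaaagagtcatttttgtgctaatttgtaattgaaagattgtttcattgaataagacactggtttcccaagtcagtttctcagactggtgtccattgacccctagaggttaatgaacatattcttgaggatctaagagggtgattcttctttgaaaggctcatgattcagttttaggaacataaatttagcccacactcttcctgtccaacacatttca
The promoter held 7 matches, and its G+C content of 85.6% was at percentile 99.8 of 35116 RefSeq promoters of the same length. A match was found in 42.6% of those promoters. The intron sequence held 0 matches, against a share of 34.6% among the centres of all Kbz peaks, and its G+C content of 35.7% was at percentile 3.79 of these centres. Its CpG ratio was 0.21, against 0.831 in the promoter. Neither stretch held TATAAA or a CArG box, the motif of serum response factor, on either strand.

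The inner peak of FLNC was then placed among all SB Kac peaks that overlapped no control Kac peak. There were 17380 of these, 27.5% of the SB Kac list, and 344 of them also overlapped a Kbz peak. By fold the FLNC peak was rank 2 of the 344, and rank 2 of the 17380. The median fold of the 344 was 2.97 and the highest 5.83. By length it was rank 47, with 1588 bp against a median of 743 bp. Its distance of 6584 bp to control Kac was less unusual, at rank 156 with a median of 5613 bp. Of the 3632 SB Kac peaks with a fold at least as high as that at FLNC, 2 lacked a control Kac peak (0.0551%). Since FLNC was chosen from these lists, these ranks describe it and test nothing. Most of the 344 peaks lay away from starts: 66 covered an annotated start of any transcript and 20 the canonical TSS of a protein-coding gene, while 157 lay inside a protein-coding gene with no annotated start.

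**Figure D2:**
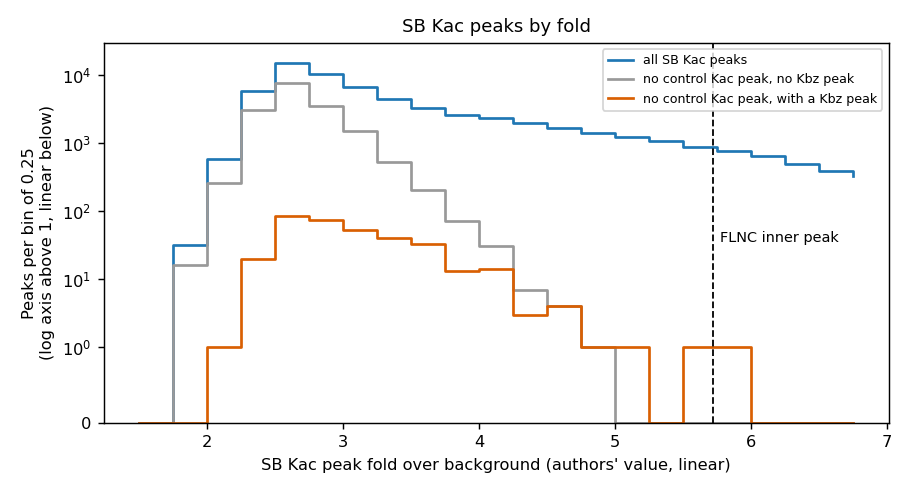
SB Kac peaks by fold in bins of 0.25, on a log axis above 1 (the highest folds lie beyond the drawn range). Lines give all SB Kac peaks and those with no control Kac peak, with or without a Kbz peak, and the dashed line marks the inner FLNC peak at a fold of 5.72, where 1 further peak of fold 5.83 lies among those with no control Kac peak.

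Counted by gene, 332 protein-coding genes (1.66%) had such a peak, that is SB Kac with Kbz and no control Kac, in the gene body or within 5 kb, and FLNC was one of them. Any SB Kac peak without control Kac was found at 35.6% of genes, and any control Kac peak without SB Kac at 39.1%. FLNC had no peak of the latter kind, and 99.6% of the bases under control Kac in its window were also under SB Kac. In the other direction 77.0% of the SB Kac bases were under control Kac, and 3282 bp were under SB Kac alone. The inner peak made up 1588 bp of these, and most others lay at the 3′ end of the gene or beyond it. When all annotated starts were taken and a peak had to lie within 3 kb, 155 genes (0.774%) had at least 1 start with SB Kac and Kbz and no control Kac. FLNC met this through FLNC-203 and FLNA did not. This depended on the distance: within 1 kb both FLNC and FLNA met it, with 0.909% of genes, and directly over a start neither did, with 1.66% of genes. At 3 kb 65 of the 155 genes had, like FLNC, a canonical TSS under all 3 lists and the differing start elsewhere.

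The 3′ end of FLNC formed another marked place, shared with the next gene. In control cells 2 Kac peaks lay there, from 128859008 to 128860739 (fold 2.82, percentile 31.3) over the last exon and from 128862151 to 128863876 (fold 3.87, percentile 76.2) beyond the gene. In SB-treated cells a single Kac peak of 5116 bp spanned both (128858897 to 128864012, fold 4.01, percentile 77.9). The Kbz peak, from 128862138 to 128863730 at percentile 45.8, lay over the TSS of ATP6V1F, which encodes a subunit of the vacuolar proton pump and starts 32450 bp downstream of the FLNC TSS. Just outside the 5 kb limit on the other side, a control Kac peak of 654 bp (fold 2.63) ended 7557 bp upstream of the TSS and had no counterpart in the other lists. Within 100 kb there were 6 further protein-coding genes. The TSSs of CALU, CCDC136, ATP6V1F and KCP were under all 3 lists, and those of OPN1SW and ATP6V1FNB under none. A start under 1 of the Kac lists but not the other was found at 0 of these 6 genes and at 8.05% of all protein-coding genes, so the count is near the background.

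FLNA (ENSG00000196924.19) lies on the minus strand of chromosome X from 154348524 to 154374634, and its canonical transcript, FLNA-202, has 48 exons and starts at 154374634. Each list held 3 peaks in the gene body plus 5 kb. Control Kac covered 22.1% of this stretch, SB Kac 21.1% and Kbz 7.36%, at percentiles 80.8, 80.6 and 77.5 of all protein-coding genes. Each control Kac peak had an SB Kac partner, and 0 SB Kac peaks lacked a control Kac peak. All peaks lay in the first 6582 bp of the gene or upstream of it. The remaining exons, and 14 of the 21 annotated starts, were in no list.

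At the FLNA TSS the control Kac peak reached from 154372559 to 154375398, over 2840 bp, with a fold of 4.11 at percentile 81.2. The SB Kac peak, from 154373644 to 154375146, was 1337 bp shorter and lay wholly inside it, with a fold of 3.71 at percentile 72.7. The Kbz peak here was the shortest of all peaks at either gene, with 280 bp from 154374110 to 154374389. It began 245 bp downstream of the TSS, in intron 1, and its fold of 3.22 stood at percentile 24.7. The TSS itself was therefore under both Kac lists and not under Kbz, the state of 10.9% of protein-coding genes (interval 10.5 to 11.4%). Within 1 kb of the TSS all 3 lists had a peak.

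The strongest SB Kac fold inside FLNA lay further in. The SB Kac peak from 154368625 to 154371777 (3153 bp, fold 4.10, percentile 79.2) covered exon 2 and 6 annotated starts that lie 3351 to 3431 bp downstream of the canonical TSS. Among them is the start of FLNA-201, a protein-coding transcript. The control Kac peak at this place, from 154368052 to 154370199 (2148 bp, fold 3.78, percentile 73.9), ended 1003 to 1083 bp short of these starts, which were under SB Kac alone. The right edges of the 2 peaks differed by 1578 bp. A Kbz peak of 1791 bp, from 154368603 to 154370393, lay in intron 2 with a fold of 3.60 at percentile 39.1, and was the widest Kbz peak of FLNA. Unlike at FLNC, a control Kac peak lay under 1597 bp of it.

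**Figure D3:**
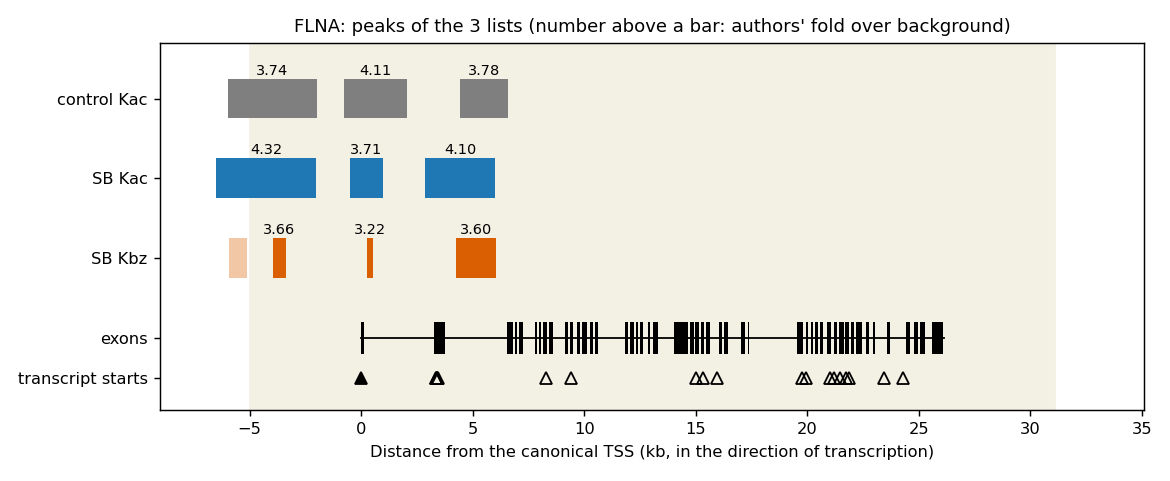
Peaks of the 3 lists at FLNA, drawn as for FLNC with the direction of transcription from left to right. Kac peaks of both conditions lie at the same 3 places, upstream, at the TSS and over the second exon or beside it, and the Kbz peaks, with folds of 3.22 to 3.66, lie inside or at the edge of them.

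The same stretches are shown for FLNA on the minus strand, 5′ to 3′, to be compared with those of FLNC. They are the RefSeq promoter (chrX:154374635-154374884) and the central 300 bases of the Kbz peak in intron 2 (hg38, chrX:154369349-154369648). Capitals again mark GGGCGG or CCGCCC.
FLNA promoter: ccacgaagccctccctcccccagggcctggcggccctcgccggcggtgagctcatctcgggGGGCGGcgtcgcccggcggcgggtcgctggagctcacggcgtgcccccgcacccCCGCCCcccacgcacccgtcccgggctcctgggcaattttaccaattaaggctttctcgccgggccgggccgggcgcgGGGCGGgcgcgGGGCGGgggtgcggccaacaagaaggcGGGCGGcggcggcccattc
FLNA intron 2: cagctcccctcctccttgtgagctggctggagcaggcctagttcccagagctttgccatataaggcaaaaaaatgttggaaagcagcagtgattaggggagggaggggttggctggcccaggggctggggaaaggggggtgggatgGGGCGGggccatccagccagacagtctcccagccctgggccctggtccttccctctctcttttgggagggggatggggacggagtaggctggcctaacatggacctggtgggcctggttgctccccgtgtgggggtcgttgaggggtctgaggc
The promoter held 5 matches, with a G+C content of 78.4% at percentile 95.4 of RefSeq promoters, and the intron sequence held 1, with a G+C content of 63.3% at percentile 70.5 of Kbz peak centres. The CpG ratio was 0.911 in the promoter and 0.141 in the intron. Each of the FLNA stretches held 1 CArG box. This motif was present in 1.16% of RefSeq promoters of 250 bases. Its share among Kbz peak centres was not computed, so the match in the intron has no background here. Matches are given as letters in these windows only.

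Upstream of FLNA the peaks ran into the next gene, EMD, which encodes the nuclear envelope protein emerin on the opposite strand and starts 4661 bp away. The Kac peaks there reached from 154376630 to 154380595 in control cells (fold 3.74, percentile 72.8) and from 154376665 to 154381117 in SB-treated cells (fold 4.32, percentile 82.2). Their edges near FLNA differed by 35 bp and those beyond the EMD start by 522 bp. A Kbz peak of 587 bp from 154378006 to 154378592 (fold 3.66) was counted with FLNA, and one of 816 bp from 154379737 to 154380552 (fold 3.55) lay 5102 bp from the gene, just outside the limit. Of 10 further protein-coding genes within 100 kb, 7 had a TSS under both Kac lists and 3 of these also under Kbz, among them RPL10, a ribosomal protein gene, at percentiles 99.2 (control Kac), 99.8 (SB Kac) and 99.2 (Kbz). A start under 1 Kac list only was found at 0 of these 10 genes, again near the background of 8.05%.

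**Figure D4:**
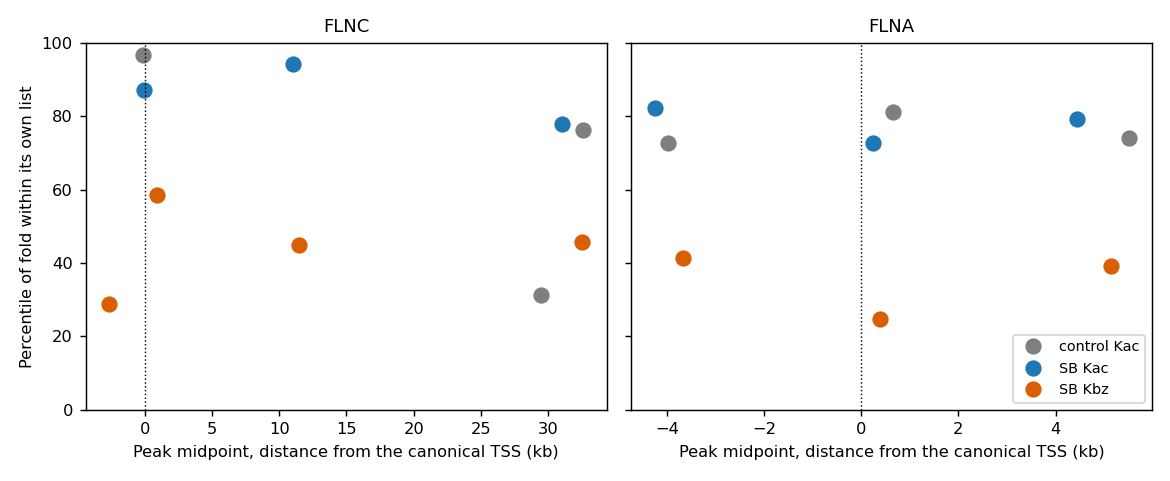
Fold of each peak at FLNC and FLNA as a percentile of its own list (y axis) against the distance of its midpoint from the canonical TSS in kb (x axis, scaled separately for each gene). The inner FLNC peak of SB Kac, at percentile 94.3, stands without a control Kac point near it, and the Kbz points lie between percentiles 24.7 and 58.6.

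Set side by side, Kbz was inside acetylated chromatin at both genes. This was the usual state of Kbz at starts in these lists and not particular to the filamin genes. Of the 9170 protein-coding genes with the canonical TSS under Kbz, 8966 also had it under both Kac lists, and 19 under neither. Shares of Kbz bases under Kac were computed for FLNC and FLNA only. At FLNC the whole 6071 bp under Kbz were also under SB Kac, and 92.2% of them under control Kac. At FLNA the shares were 99.2% and 92.7%. In return Kbz covered 42.5% of the SB Kac bases at FLNC and 34.6% at FLNA. None of the 7 Kbz peaks at these genes stood above percentile 58.6 of the Kbz list, whereas the 6 SB Kac peaks stood at percentiles 72.7 to 94.3 of theirs. These percentiles belong to different lists and are not levels of the marks.

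The genes whose TSS was most like that of FLNC were looked up by the sum, over the 3 lists, of the differences in fold percentile of the strongest peak over the canonical TSS. They were GLA and HNRNPH2, which share their peaks, FRMD5 (each with a sum of 2.32), ZFP69B (2.35) and PPM1D (2.63), over 1 library per list. For FLNA, where the Kbz value is set to 0, they were INSIG2 (0.403), KLF10 (0.683), CERS4 (0.801), KIDINS220 (1.07) and TRIM65 (1.49).

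Filamins act with many partners, and 25 genes of proteins that bind or regulate them were examined in the same way. Their canonical TSS was under all 3 lists at 6 genes, under both Kac lists without Kbz at 7 and under no list at 10, against 44.8%, 10.9% and 36.2% of all protein-coding genes. The starts of ITGB1, an integrin chain that filamin binds, and RALA, a small GTPase, were marked most strongly in Kbz, each at percentile 98.7. A start under control Kac alone was found at MYOT, a Z-disc protein gene, at percentile 9.32, and one under SB Kac alone at TRAF2, a signalling adaptor gene, at percentile 74.9. These states were found at 3.24% and 3.88% of all protein-coding genes. An SB Kac peak with Kbz and no control Kac in the gene body or within 5 kb, as at FLNC, was present at 0 of the 25, against 1.66% of all protein-coding genes. Kbz was over the TSS of 24.0% of the partners and of 45.8% of all protein-coding genes, and with 25 genes no more than these counts can be read from the list.

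The list named other actin cross-linkers held 21 genes of proteins with calponin homology domains, and it also took in linkers such as SYNE1. Their TSS was under all 3 lists at 10, under both Kac lists alone at 3, under SB Kac alone at 1 (SYNE1, a nuclear envelope linker, percentile 50.4) and under no list at 7. Over all protein-coding genes the shares of these states were 44.8%, 10.9%, 3.88% and 36.2%, in the same order. The 33.3% of the list under no list was near the last of these. Among the alpha-actinins, which bundle actin, ACTN1 and ACTN2 were under all 3 lists, ACTN3 under both Kac lists and ACTN4 under none at the canonical TSS. Again 0 of the 21 had an SB Kac peak with Kbz and no control Kac, against 1.66% of all protein-coding genes, and so few genes cannot show a lower share. Any SB Kac peak without control Kac was found at 19 of the 21 (90.5%) and at 15 of the 25 partners (60.0%), against 35.6% of all protein-coding genes. The median gene length was 117272 bp in the first list, 46037 bp in the second and 27471 bp over all genes, and the part of length in these counts was not tested. A Kbz peak lay over the TSS at 47.6%, close to the 45.8% of all protein-coding genes, and at 5.56% of the striated muscle markers and 6.67% of the liver markers. The genes named from the 4 lists were picked after their values were seen.

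**Figure D5:**
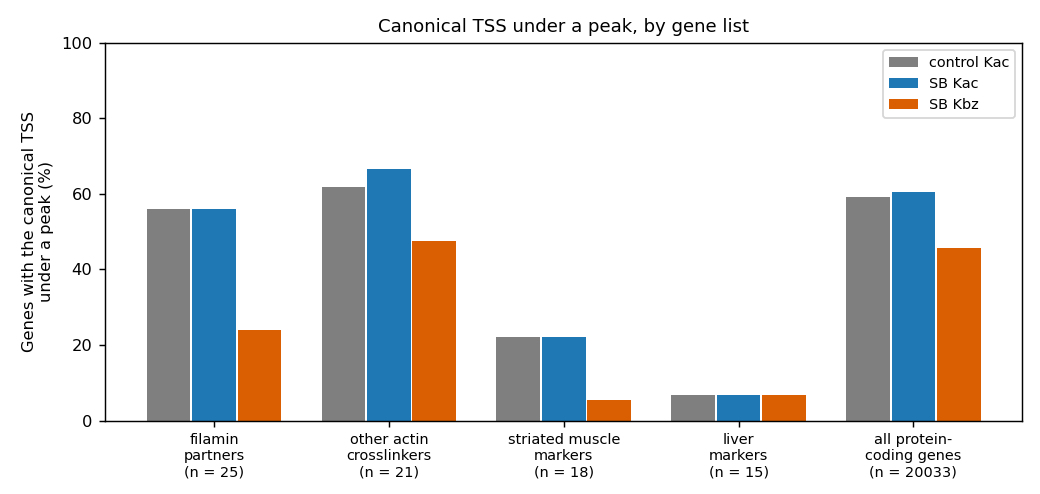
Percentage of genes with the canonical TSS under a peak of control Kac, SB Kac or SB Kbz, for 4 gene lists and for all 20033 protein-coding genes. Liver markers are lowest for both Kac lists, at 6.67%, and other actin cross-linkers are close to all genes, at 61.9%, 66.7% and 47.6% in the order of the lists.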

How the data were processed

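Cells labelled HepG2 were examined by ChIP-seq with 1 library per group. According to the methods and processing notes, the authors mapped single reads of 50 bp to hg38 with Bowtie2 2.2.6, kept uniquely mapped reads, removed duplicates with SAMtools 0.1.19 and called peaks with MACS2 2.1.1 at an FDR of 0.01. The deposited broad peak lists give per peak a display score (not used), a fold (linear ratio over background), −log10 p and −log10 q. The highest q was 0.0494, beyond the stated FDR. The background track and the broad setting are not given in the sources used here. Depth is unknown, so no interval could be set on a peak.

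Peaks on 24 chromosomes were kept (3 peaks of control Kac lay elsewhere) and placed on genes of GENCODE 44, whose build is hg38. The canonical transcript was the one marked as such. Overlap meant at least 1 bp. Names followed a rule: FLNC and FLNA, genes with a TSS within 100 kb, up to 3 genes of each list with SB Kac and Kbz and no control Kac at the TSS (there were none), and the 5 genes most alike. Genes named from the 4 lists fall outside this rule and were picked after their values were seen. The members, the 4 gene lists and the alternatives were chosen with earlier results of these data known. No test between groups was possible. Python 3.11.15, numpy 2.4.6, pandas 2.3.3, scipy 1.17.1 and matplotlib 3.10.9 were used. The code for overlaps was checked with planted positions, and its 6 counts between the deposited lists matched bedtools 2.31.1, with 0 differences. Protein sequences were not used here.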

Additional observations from a re-analysis of the deposited data

How the results depend on the processing

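For 20 results a single processing choice was altered, or 2 together for any annotated start within 3 kb, which gave 136 values, of which 100 stayed within 1.5 times of the original, in the same state or inside the Wilson 95% interval, and 36 moved. These intervals cover counting error only. No paired analysis was possible because there is 1 library per group, and for the same reason no replicate was left out. The cause of a move was not tested except where the alternative itself removes peaks or shifts the window. A stricter threshold can only remove peaks, so the absence of control Kac from the inner FLNC region could not change. That region kept its SB Kac peak under each threshold tried, but its Kbz peak was absent at a −log10 q of at least 5.

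At that threshold FLNC held 2 Kbz peaks, and FLNA 1 control Kac and 0 Kbz peaks. Counting a TSS under a peak as 1 and otherwise as 0, the FLNA TSS was then at 0 for SB Kac, whose peak had a −log10 q of 4.99. SB Kac and Kbz without control Kac lay at 3.07% of coding gene starts, and both Kac lists without Kbz at 9.75%. With 15000 peaks from each list FLNC held 1 control Kac peak, FLNA 0 control Kac peaks and 1 Kbz peak, the FLNA TSS was at 0 for control Kac and for SB Kac, and these shares were 7.48% and 3.7%. In the gene body alone FLNC held 2 Kbz peaks. With 20 kb to each side FLNC and FLNA held 6 control Kac peaks each, and FLNA 5 SB Kac peaks. The FLNA TSS was at 1 for Kbz within 1 kb and within 3 kb, where the shares were 0.28% and 8.76%, and 0.25% and 9.56%. For any annotated start they were 1.66% and 22.1%. For any annotated start within 3 kb, an alternative chosen after seeing the data, FLNA was again at 1 for Kbz and the second share was 21.9%. Of 36 recomputed covered lengths 9 moved, all of them to fewer bases.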
